A study of Mus musculus with 2 samples.

Results

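The 10 genes described here, *Atf4*, *Atf5*, *Ddit3*, *Trib3*, *Chac1*, *Cebpb*, *Cebpg*, *Nupr1*, *Sesn2* and *Eif4ebp1*, encode ATF4, its partner and effector transcription factors and some of its targets. They were chosen by symbol among the 31053 genes of the count tables, all 10 were listed, and they were read in the cells that passed the study's filter, over 1000 genes detected and less than 20% of UMIs (unique molecular identifiers, which tag single captured RNA molecules) from mitochondrial genes. The study describes the cells as cultured primary brain pericytes (PCs) of wild type female C57BL/6N mice of 6 to 8 weeks. They were sequenced as single cells with 10x Genomics 3′ chemistry at passage 5 (PC5, 1 library) and passage 20 (PC20, 1 library). Whether both libraries hold 1 cell type was not tested, and marker levels are given at the end of the Results. By the study's methods each culture came from a separate isolation of 6 pooled brains, while the deposited description speaks of only 1 isolation. Passage and isolation therefore cannot be told apart, and nothing measures the spread between cultures. After the filter 9950 of 10629 PC5 barcodes and 4749 of 4884 PC20 barcodes remained, with 223054273 and 191122251 UMIs and medians of 21700 and 33424 UMIs a cell. Of the barcode sequences 20 occurred in both libraries.

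ATF4 is a basic leucine zipper (bZIP) transcription factor whose messenger RNA is translated better when the initiation factor eIF2 is phosphorylated. The eIF2 kinases respond to amino acid shortage, unfolded protein in the endoplasmic reticulum, viral RNA and haem shortage, and the programme that follows is called the integrated stress response. ATF4 raises genes of amino acid supply and tRNA charging and, with CHOP (*Ddit3*), genes of stress adaptation and death. Counts of RNA do not show how much of a protein was made.

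ATF4 binds with C/EBP factors to a composite element, here searched as TGATGNAA on both strands of RefSeq promoters (GRCm38.p6, from 250 bases before the start to 50 bases after it). Of the 10 genes 9 had an entry and 3 of these held the letters, *Chac1*, *Nupr1* and *Trib3*, against 4.51% of 27025 genes with an entry and 3.97% of 32851 promoters. The 3 promoters are shown because they carry these letters, which are in capitals and lie on the strand opposite to the gene.
Chac1 chr2:119350992-119351291 (+ strand): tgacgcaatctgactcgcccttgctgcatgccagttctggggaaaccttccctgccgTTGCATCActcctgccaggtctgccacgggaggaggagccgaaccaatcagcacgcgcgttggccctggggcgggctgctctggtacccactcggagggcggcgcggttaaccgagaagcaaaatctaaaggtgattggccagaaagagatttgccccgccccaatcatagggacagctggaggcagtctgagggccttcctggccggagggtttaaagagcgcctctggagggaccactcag
Nupr1 chr7:126625421-126625720 (- strand): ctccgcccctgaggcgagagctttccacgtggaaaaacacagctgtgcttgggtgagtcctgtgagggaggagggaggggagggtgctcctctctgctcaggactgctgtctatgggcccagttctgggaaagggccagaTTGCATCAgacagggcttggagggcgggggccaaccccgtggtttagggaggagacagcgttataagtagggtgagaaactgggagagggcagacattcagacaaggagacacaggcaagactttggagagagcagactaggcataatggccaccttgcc
Trib3 chr2:152344011-152344310 (- strand): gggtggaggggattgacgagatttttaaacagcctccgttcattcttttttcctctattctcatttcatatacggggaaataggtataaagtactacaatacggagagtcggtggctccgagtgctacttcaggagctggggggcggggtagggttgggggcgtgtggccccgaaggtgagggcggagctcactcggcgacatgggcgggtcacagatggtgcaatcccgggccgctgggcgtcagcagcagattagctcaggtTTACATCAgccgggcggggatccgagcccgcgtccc
*Chac1* and *Nupr1* had the same 8 letters, TTGCATCA, starting 193 and 110 bases before the start of the RefSeq entry. The *Nupr1* promoter lies inside the span of the gene given below (chr7:126623249-126630861, minus strand), so its start is not the outermost start of that span. In *Trib3* the letters were TTACATCA, and their first base lay 14 bases after the start. The cAMP response element TGACGTCA, the palindromic C/EBP site TTGCGCAA and the endoplasmic reticulum stress element (CCAAT followed after 9 bases by CCACG) were found in 0 of the 9, against 2.03%, 0.207% and 0.137% of all genes. The last of these was held by 8 of 17 genes of the ATF6 and XBP1 branches with an entry, *Hspa5*, *Hsp90b1*, *Calr*, *Canx*, *Creld2*, *Dnajc3*, *Pdia6* and *Syvn1*. TGATGNAA was held by 5 of 8 tRNA charging genes, by 5 of 12 other ATF4 targets and by 4 of 15 amino acid supply genes. These are matches of letters in a window, and binding was not measured.

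Most of the 10 genes were higher in PC20. Levels are given as CPM (UMIs summed over the kept cells, per 1000000), and the log2 ratio is PC5 over PC20, so that a negative value is a higher level in PC20. At least 2-fold higher in PC20 were 8 of the 10 genes, where 19.1% of all 10504 expressed genes (a UMI in at least 10% of cells of either library) were that much higher. At least 2-fold higher in PC5 were 0 of the 10, against 17.9% of all expressed genes. The median log2 ratio of the 10 genes was -2.11 and that of all expressed genes -0.03. All 10 passed the 10% minimum, *Trib3* and *Chac1* through PC20 alone. With 1 library per passage no test between passages was made, and the 95% intervals cover counting error only.

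*Atf4* (chr15:80255184-80257541, plus strand, GRCm38) had 104 CPM (95% interval 103 to 106) in PC5 and 433 (430 to 436) in PC20. Its log2 ratio was -2.05 (-2.07 to -2.03), a 4.15-fold higher level in PC20. To compare cells at 1 depth, each was thinned to 10500 UMIs, which left 8847 PC5 and 4474 PC20 cells. An *Atf4* UMI was then seen in 63.1% of the PC5 and 97.4% of the PC20 cells. The median cell held 1 UMI in PC5 and 4 in PC20. The PC20 median was reached by 3.92% of PC5 cells, and 9.19% of PC20 cells were at or below the PC5 median. *Atf5* (chr7:44812256-44816658, minus strand), a relative of ATF4 that is also under translational control and is linked to mitochondrial stress, had 47.6 CPM in PC5 and 91.6 in PC20. Its log2 ratio of -0.94 (-0.98 to -0.91) lay just inside the 2-fold limit, and the share of thinned cells with a UMI was 36.6% and 56.8%. Cell by cell the libraries overlapped widely for *Atf5*.

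*Ddit3* (chr10:127290774-127296288, plus strand), which encodes CHOP, was at 22.4 CPM (21.8 to 23.0) in PC5 and at 894 (890 to 898) in PC20. This was a 39.9-fold higher level in PC20, with a log2 ratio of -5.32 (-5.36 to -5.28), at rank 113 of the 10504 expressed genes from the PC20 side. The thinned share was 19.0% in PC5 and 98.3% in PC20, and 0.113% of PC5 cells reached the PC20 median of 8 UMIs. The libraries were thus nearly separate for this gene. *Cebpb* (chr2:167688915-167690418, plus strand), the C/EBP factor that dimerizes with CHOP and ATF4, had 139 and 374 CPM and a log2 ratio of -1.43 (-1.44 to -1.41). *Cebpg* (chr7:35046422-35056573, minus strand), a C/EBP factor without an activation domain of its own that pairs with ATF4, had 28.1 and 135 CPM and a log2 ratio of -2.26 (-2.30 to -2.22). Both C/EBP genes were seen in more cells of PC20, *Cebpb* in 68.5% and 95.8% and *Cebpg* in 24.3% and 74.3% of thinned PC5 and PC20 cells. *Nupr1* (chr7:126623249-126630861, minus strand), a small chromatin-associated stress protein, had 79.7 and 356 CPM and a log2 ratio of -2.16 (-2.18 to -2.14). It was seen in 46.5% of thinned PC5 and 93.7% of thinned PC20 cells.

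Among the effectors, *Trib3* (chr2:152337422-152344032, minus strand) had the lowest log2 ratio of the 10 genes. It encodes a pseudokinase that is induced by ATF4 and CHOP. PC5 held 2.17 CPM of it (1.98 to 2.37) and PC20 142 CPM (141 to 144), so that it was 65.7-fold higher in PC20, at a log2 ratio of -6.04 (-6.17 to -5.91). *Chac1* (chr2:119351229-119354381, plus strand), which encodes an enzyme that degrades glutathione, had 1.43 CPM (1.28 to 1.60) and 55.7 (54.6 to 56.8), with a log2 ratio of -5.28 (-5.45 to -5.12). In thinned PC5 cells *Trib3* was seen in 2.31% and *Chac1* in 1.20%. Of 12 genes of other lineages, *Cx3cr1* was seen in 2.34% of thinned PC5 cells and the other 11 in at most 0.384% (*Csf1r*). *Trib3* and *Chac1* thus lay at or under *Cx3cr1* and above the rest in PC5. Genes of other lineages do not measure free RNA of the cultured cells, so the background of *Trib3* and *Chac1* was not measured. In PC20 the shares were 73.6% and 40.0%, where the genes of other lineages reached at most 0.313%.

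The remaining pair acts on growth control. *Eif4ebp1* (chr8:27260329-27276674, plus strand) encodes 4E-BP1, which binds the cap-binding factor eIF4E and restrains translation. Its levels were 238 and 897 CPM and its log2 ratio -1.91 (-1.93 to -1.90), and 0.531% of PC5 cells reached the PC20 median of 9 UMIs. *Sesn2* (chr4:132492032-132510501, minus strand), a sestrin that restrains mTORC1 and is a target of both ATF4 and p53, was the gene out of line. PC5 held 39.7 CPM of it (38.8 to 40.5) and PC20 33.9 CPM (33.1 to 34.8), so that its log2 ratio was 0.22 (0.18 to 0.27), and it was seen in 32.4% and 28.2% of thinned cells. It was the only one of the 10 genes with a higher level in PC5, at rank 6327 of 10504 from the PC20 side.

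**Figure D1:**
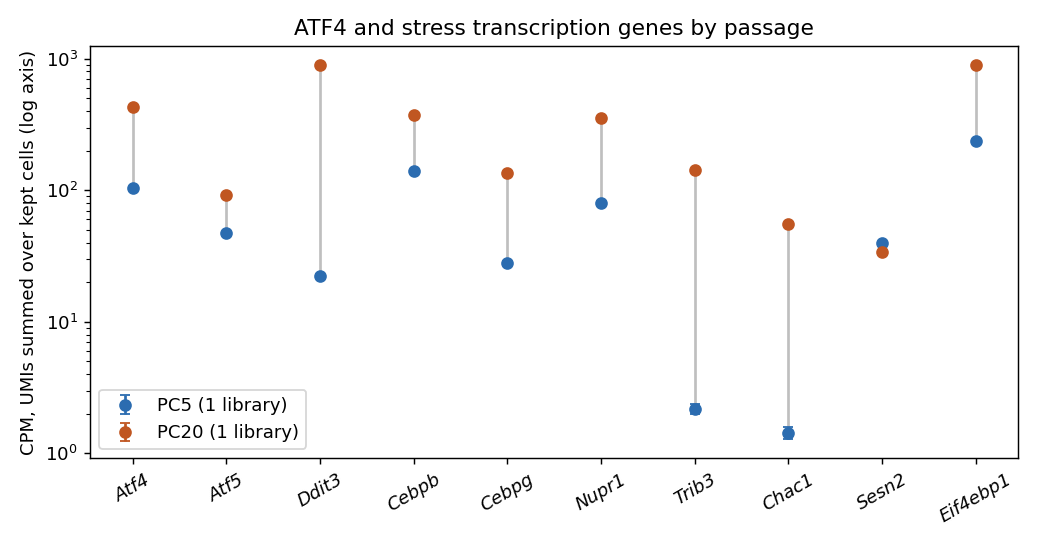
Level of each gene in CPM on a log axis in PC5 (blue) and PC20 (orange), 1 library each, with exact Poisson 95% intervals that are mostly smaller than the points; grey lines join the libraries. *Trib3*, *Ddit3* and *Chac1* are farthest apart, and *Sesn2* is the gene with PC5 above PC20.

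Some of the 10 genes overlap other genes, and whether the counting used strand is not given in the sources used here. *Mars*, on the strand opposite to *Ddit3*, had 10.6 CPM in PC5 and 39.8 in PC20. *Nup62*, opposite to *Atf5*, had 41.8 and 54.8 CPM, and *Tmem189*, opposite to *Cebpb*, had 31.5 and 17.6 CPM. *Gm12981*, on the same strand as *Sesn2*, had 0.520 and 4.77 CPM. A second gene model within *Ddit3*, AC144852.1, had 0 UMIs in both.

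The proportions among the genes differed as well. Per *Atf4* UMI there were 0.215 *Ddit3* UMIs in PC5 and 2.06 in PC20, and *Trib3* went from 0.0207 to 0.328 and *Chac1* from 0.0137 to 0.129. *Cebpg* (0.269 and 0.311), *Nupr1* (0.763 and 0.822) and *Eif4ebp1* (2.28 and 2.07) kept nearly the same proportion to *Atf4*. Lower per *Atf4* UMI in PC20 were *Sesn2* (0.380 and 0.0783), *Atf5* (0.456 and 0.211) and *Cebpb* (1.33 and 0.863). These are ratios of 3′ end counts, which were not divided by transcript length, and each is to be compared between the libraries and not between genes.

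In single cells more of the 10 genes were seen in PC20 than in PC5. Even so, *Sesn2* was seen in 28.2% and *Chac1* in 40.0% of thinned PC20 cells. The median number of the 10 genes seen in a thinned cell was 4 in PC5 and 8 in PC20. At least 7 were seen in 2.77% and 83.3% of the cells, and all 10 in 0 PC5 cells and 157 PC20 cells (3.51%). *Ddit3* had a wide range among PC20 cells, with a median of 8 UMIs, 1 at the 5th and 24 at the 95th percentile, a maximum of 63 and a variance 5.30 times the mean. The median of that ratio over genes seen in at least 10% of thinned PC20 cells was 1.08, and the ratio grows with the mean. The excess of the variance over the mean, divided by the square of the mean, was 0.434 for *Ddit3*, 0.507 for *Chac1* and 0.184 for the median gene in PC20. In PC5 the variance of *Nupr1* was 3.47 times its mean, its median was 0 UMIs and its maximum was 64. For *Cebpg* the variance was 1.07 times the mean in PC5 and 1.11 times in PC20, near the median gene.

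**Figure D2:**
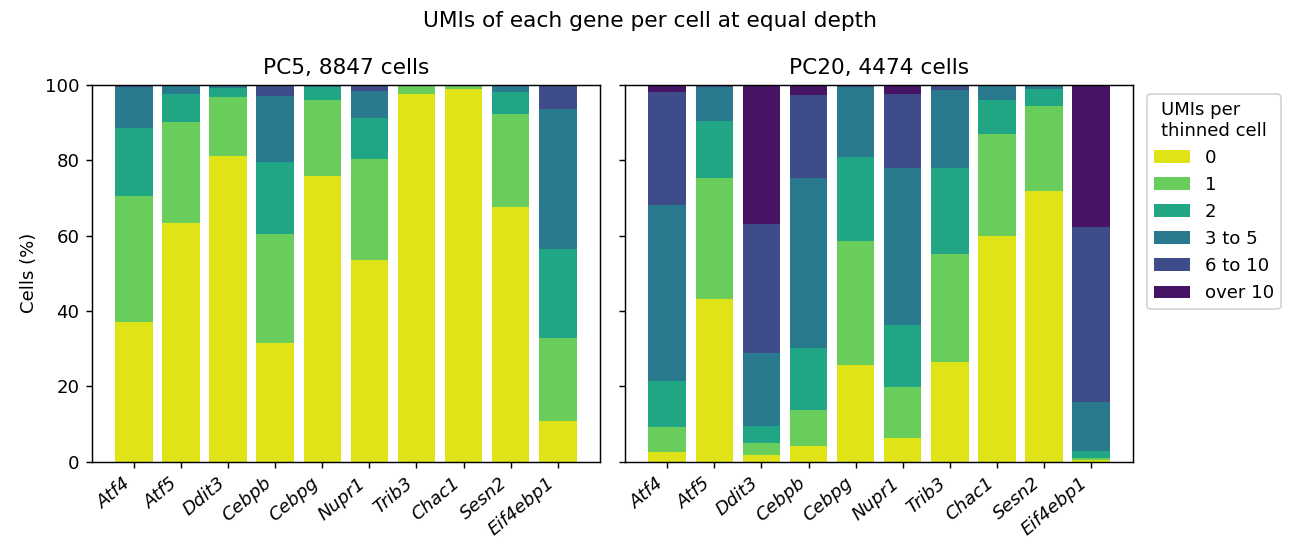
Share of cells (%) by the number of UMIs of each gene after thinning to 10500 UMIs a cell, in 8847 PC5 cells (left) and 4474 PC20 cells (right). Most PC5 cells hold 0 *Ddit3*, *Trib3* and *Chac1* UMIs, while many PC20 cells hold over 10 *Ddit3* or *Eif4ebp1* UMIs.

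Few PC5 cells carried PC20-like amounts of *Ddit3*. The 25th percentile of PC20 was 5 UMIs, which 17 of 8847 thinned PC5 cells (0.192%) reached. Of these 17 cells 0 had a UMI of *Krt18*, which was seen in 99.1% of PC20 and 0.147% of PC5 cells, and 15 had one of *Col1a2*, which was seen in 99.6% of PC5 and 0.0671% of PC20 cells. By both genes, which are in none of the lists and differ strongly between the libraries, they were thus like PC5. Their mean of *Nupr1* was 5.06 UMIs, that of *Chac1* 0.412 and that of *Trib3* 0.412, against 0.893, 0.0139 and 0.0254 in all PC5 cells.

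Measured co-expression within a library was low at this depth. Pearson's *r* over thinned cells of log2(1 + UMIs) had a median of 0.0395 over the 45 gene pairs in PC5 (8847 cells) and of 0.0405 in PC20 (4474 cells). The cells of a library share that library, so *r* is a description. Counting error also draws *r* towards 0 where counts are low. In thinned cells the mean of *Chac1* was 0.0139 UMIs in PC5 and 0.585 in PC20, and that of *Ddit3* 0.241 and 9.91. Low values of *r* therefore do not show that genes vary apart, and pairs or libraries at unlike counts are not directly comparable. In PC20 10 pairs were above 0.1, led by *Ddit3* and *Nupr1* (0.244), *Ddit3* and *Trib3* (0.199), *Ddit3* and *Cebpb* (0.190) and *Atf4* and *Ddit3* (0.158). *Ddit3* thus took part in the 4 highest pairs of PC20. *Chac1* did not follow *Ddit3* there (-0.0226) and was nearest to *Atf4* (0.127). *Atf5* had the lowest pair, with *Ddit3* (-0.0705). Without thinning the PC20 median was 0.127, so depth matters for the size of these values.

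In PC5 2 pairs were above 0.1, *Trib3* and *Chac1* (0.135) and *Ddit3* and *Chac1* (0.103). *Trib3* and *Chac1* were seen together in 16 cells, where the product of their shares gives 2.44, and *Ddit3* and *Chac1* in 47 where it gives 20.1. The scarce transcripts of PC5 thus met in the same cells more often than their shares give. Of the 277 PC5 cells with at least 2 *Ddit3* UMIs 10.5% had a *Trib3* UMI and 6.50% a *Chac1* UMI, against 1.92% and 0.823% of the 7170 cells without *Ddit3*. Going from the 993 PC20 cells with 0 to 4 *Ddit3* UMIs to the 426 with at least 20, the mean of *Nupr1* went from 3.05 to 5.21, that of *Trib3* from 1.22 to 1.97 and that of *Cebpb* from 3.72 to 5.15. *Chac1* went the other way, from 0.605 to 0.434, as did *Atf5*, from 1.18 to 0.859.

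**Figure D3:**
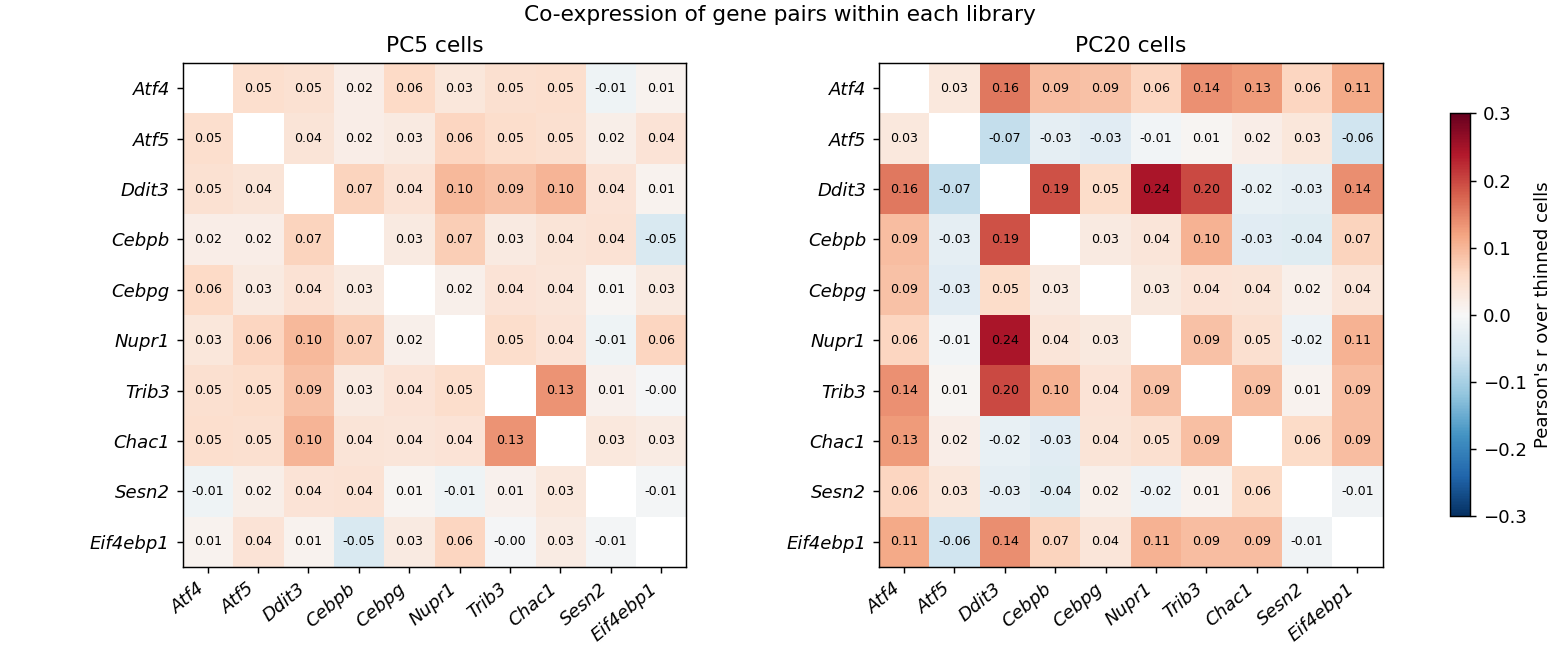
Pearson's *r* over thinned cells for each pair of the 10 genes in PC5 (left) and PC20 (right), printed in each square and shown as colour. *Ddit3* with *Nupr1*, *Trib3* and *Cebpb* stands out in PC20, and most pairs lie near 0 in both libraries.

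*Ero1l* and *Gadd45a* were among the 3 genes most like the sum of the 10 in both libraries. Taken gene by gene, *Ero1l* was nearest to *Ddit3* in PC20 and to no other of the 10 in either library. *Gadd45a* was nearest to none of them. In PC20 *Ero1l* and *Hspa5* were at 2639 and 3179 CPM, and counting error draws *r* less towards 0 at such counts. Likeness was *r* over thinned cells to the sum of the standardised values of the 10 genes, whose median over genes was 0.011 in PC5 and 0.013 in PC20. In PC20 the nearest were *Ero1l* (0.393), the oxidase of disulfide formation in the endoplasmic reticulum, and *Hspa5* (0.386), its main chaperone. *Gadd45a* (0.316), a growth arrest gene, and *Gpi1*, *Ldha*, *Hmox1*, *Hspa9*, *Bnip3*, *Pgk1* and *Manf* followed, down to 0.250. *Gpi1*, *Ldha* and *Pgk1* are genes of glycolysis. In PC5 *Ero1l* (0.125) and *Gadd45a* (0.121) led again, at much lower values, followed by *Ctsl*, *Mthfd2*, *Ifrd1*, *Psap*, *Sqstm1*, *Cstb*, *Cdkn1a* and *Nars*, down to 0.0976. With the share of ribosomal protein UMIs the sum had *r* at -0.187 (PC5) and -0.170 (PC20), and the part of that share in these values was not tested.

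The 10 genes differed in their *r* to gene lists in PC20. *r* to the summed UMIs of the amino acid supply genes was highest for *Atf4* (0.323), *Eif4ebp1* (0.256), *Chac1* (0.241) and *Trib3* (0.230). For *Ddit3* it was 0.116 with these, 0.323 with genes of the ATF6 and XBP1 branches, which handle unfolded protein in the endoplasmic reticulum, and 0.424 with the other ATF4 targets. With the ATF6 and XBP1 branches *Atf4* had 0.237 and *Trib3* 0.219, and with the other ATF4 targets 0.264 and 0.233. In PC20 *Ero1l* alone held 2639 of the 3608 CPM summed over the other ATF4 targets, so the sum of this list is mostly 1 gene. *Ero1l* by itself had *r* at 0.380 to *Ddit3*. *Atf5* was near 0 with the amino acid supply genes (0.0286) and the ATF6 and XBP1 branches (-0.0668). With the mitochondrial chaperones and proteases it was at -0.111 in PC20, its lowest value with the lists, and at -0.0426 in PC5. *Sesn2* had its highest value with the p53 targets, 0.209 in PC5 and 0.106 in PC20, the highest of the 10 genes in both libraries.

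Cells were also ranked by the summed UMIs of the amino acid supply genes, which hold none of the 10, and split into 10 equal groups, cells with the same sum at a boundary being divided between neighbouring groups. In PC20 the mean of *Chac1* was 0.181 UMIs in the lowest group and 4.69 times that (0.848) in the highest, that of *Trib3* was 2.10 times (0.842 and 1.77) and that of *Atf4* 1.91 times as high (2.87 and 5.48). *Ddit3* differed 1.09-fold between these 2 groups (8.22 and 8.98) but was higher between them, with 11.5 in group 3. *Trib3* was already at 1.74 in group 5. *Cebpb* was lower in the highest group (4.36 and 3.70). In PC5 the highest group had 7.68 times the *Chac1* and 7.01 times the *Trib3* of the lowest, at means of at most 0.0633 UMIs, while *Nupr1* was lower (1.17 and 0.852). Along these groups the share of cells with a thinned *Mki67* or *Top2a* UMI, genes of dividing cells, went from 21.5% to 40.3% in PC5 and from 44.6% to 68.5% in PC20. The mean mitochondrial share went from 1.62% to 2.43% in PC20. The share of ribosomal protein UMIs went from 32.2% to 30.2% in PC5 and from 33.2% to 27.9% in PC20. The part of any of these shares in the differences between groups was not tested.

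**Figure D4:**
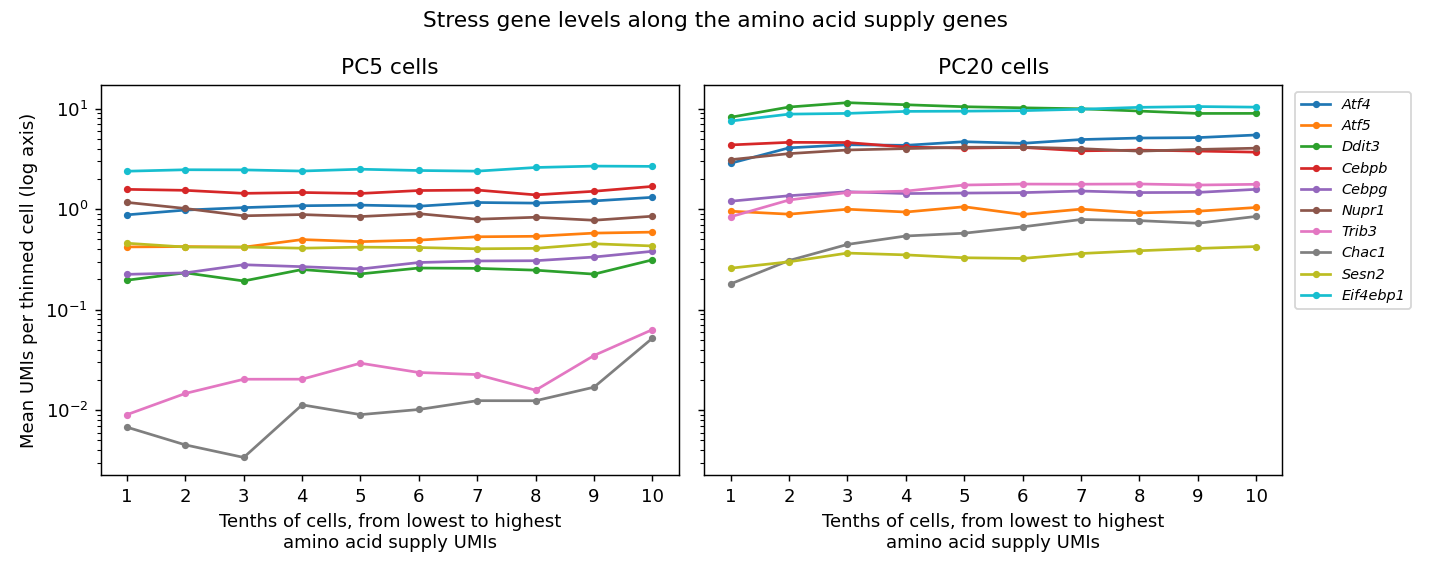
Mean UMIs per thinned cell (log axis) of each gene in 10 equal groups of cells, from the lowest to the highest summed UMIs of the amino acid supply genes, in PC5 (left) and PC20 (right). In PC20 *Chac1* and *Atf4* are highest in group 10, and *Trib3* climbs and then levels off from group 5. *Ddit3* rises there from 8.22 in group 1 to 11.5 in group 3 and falls to 8.98 in group 10. In PC5 *Chac1* and *Trib3* lie below the other genes throughout.

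Of the kept cells, which were not thinned, 45.0% in PC5 and 72.2% in PC20 had a UMI of *Mki67* or *Top2a*. PC20 cells were deeper (medians of 21700 and 33424 UMIs), which makes such a UMI easier to see there. At equal depth the share lay between 21.5% and 44.3% in the 10 PC5 groups above and between 44.6% and 68.5% in those of PC20. Within PC5 *Nupr1* had 63.9 CPM in cells with such a UMI and 96.7 in cells without, the largest difference of the 10 genes in that library. Without these cells *Atf5* had a log2 ratio of -1.21, past the 2-fold limit, and *Sesn2* of 0.53. The other 8 genes stayed past the limit, between -1.43 and -6.17, so that 9 of the 10 then passed it.

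The wider pathway was read in lists of genes that do not hold the 10. Genes that act on eIF2 above ATF4 had a median log2 ratio of -0.23, with 3 of 14 at least 2-fold higher in PC20 and 1 in PC5, near the shares of all expressed genes in both directions (19.1% and 17.9%) or under them. *Ppp1r15a*, whose product GADD34 leads the phosphatase back to eIF2, had 18.6 and 142 CPM and a log2 ratio of -2.93. *Eif2b3* (-1.63) and *Eif2s1* (85.8 and 172 CPM) were the others higher in PC20, and *Eif2s3x* (1.56) was higher in PC5. The eIF2 kinases *Eif2ak1*, *Eif2ak2*, *Eif2ak3* and *Eif2ak4* lay between -0.63 and 0.93, within 2-fold.

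Targets of ATF4 outside the 10 were mostly higher in PC20. Of all expressed genes 19.1% were at least 2-fold higher in PC20 and 17.9% in PC5. Of the amino acid supply genes 15 of 19 were at least 2-fold higher in PC20 (median -2.35) and 1, *Slc7a3*, in PC5. *Slc7a3* had 0.605 CPM in PC5 and did not reach the 10% minimum of expressed genes. *Cth* (-5.32), an enzyme of cysteine synthesis, *Slc6a9* (-4.93), a glycine transporter, and *Asns* (-4.36), asparagine synthetase, were lowest. All 12 tRNA charging genes were at least 2-fold higher in PC20, with a median of -1.78, led by *Eprs* (-2.85), *Lars* (-2.14) and *Cars* (-2.01). Of the other ATF4 targets 10 of 12 were, with a median of -2.98, and *Gdf15* (-7.68), a secreted stress factor, *Adm2* (-7.09), a secreted peptide, and *Ero1l* (-4.19) were the lowest with a measured ratio. *Fgf21*, a stress hormone, had 0 UMIs in PC5 and 1120 in PC20, for which 3 UMIs in PC5 give a bound of -8.77. *Cth*, *Slc6a9*, *Pycr1*, *Gdf15*, *Adm2*, *Fgf21*, *Stc2* and *Atf3* passed the 10% minimum through PC20 alone. In PC5 *Cth* had 345 UMIs, *Slc6a9* 241, *Gdf15* 354 and *Adm2* 60, of which a part may be background that was not subtracted.

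Other stress responses were read beside these. Of the genes of the ATF6 and XBP1 branches 8 of 20 reached 2-fold on the PC20 side and 0 on the PC5 side (median -0.76), led by *Hspa5* (-3.90), *Atf6* (-2.77) and *Sdf2l1* (-2.76). Of the mitochondrial chaperones and proteases 6 of 9 were, with *Lonp1* (-3.00), a protease and ATF4 target, *Hspa9* (-2.64) and *Clpp* (-1.37) lowest. Among heat shock genes it was 1 of 9, *Hspb1* (-1.51), with a median of -0.15, a share under that of all expressed genes. The p53 targets had 1 of 10 higher in PC20, *Bbc3* (-1.01), and 3 in PC5, *Ccng1* (1.30), *Pmaip1* (1.57) and *Trp53inp1* (2.14), with a median of 0.68. The shares of all expressed genes were again 19.1% and 17.9%.

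Paralogues of the 10 genes differed in direction. Of the 9 with a ratio 4 were at least 2-fold higher in PC5 and 1 in PC20, with a median of 0.94. *Sesn3* was at 46.2 CPM in PC5 and 13.0 in PC20 (1.83), *Eif4ebp2* at 89.7 and 33.3 (1.43) and *Trib2* at 67.6 and 25.2 (1.42). *Trib2* and *Eif4ebp2* thus lay on the opposite side to *Trib3* and *Eif4ebp1*, while *Sesn3* and *Sesn1* (0.20) lay on the same side as *Sesn2*. *Chac2* (-0.82) and *Nupr1l* (-1.63, at 0.403 and 1.25 CPM) lay on the same side as *Chac1* and *Nupr1*. Other bZIP factors were split, with 6 of 35 higher in PC20, led by *Atf3* (-3.58), *Dbp* (-3.15) and *Atf6*, and 10 in PC5, among them *Maf* (2.58), *Creb3l1* (2.21) and *Fosl2* (1.17), and a median of 0.06. Of all expressed genes 19.1% were at least 2-fold higher in PC20 and 17.9% in PC5. The 10% minimum was reached by 7 of the 10 listed paralogues and 29 of the 35 bZIP factors. *Atf3* reached it through PC20 alone, with 574 UMIs in PC5.

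**Figure D5:**
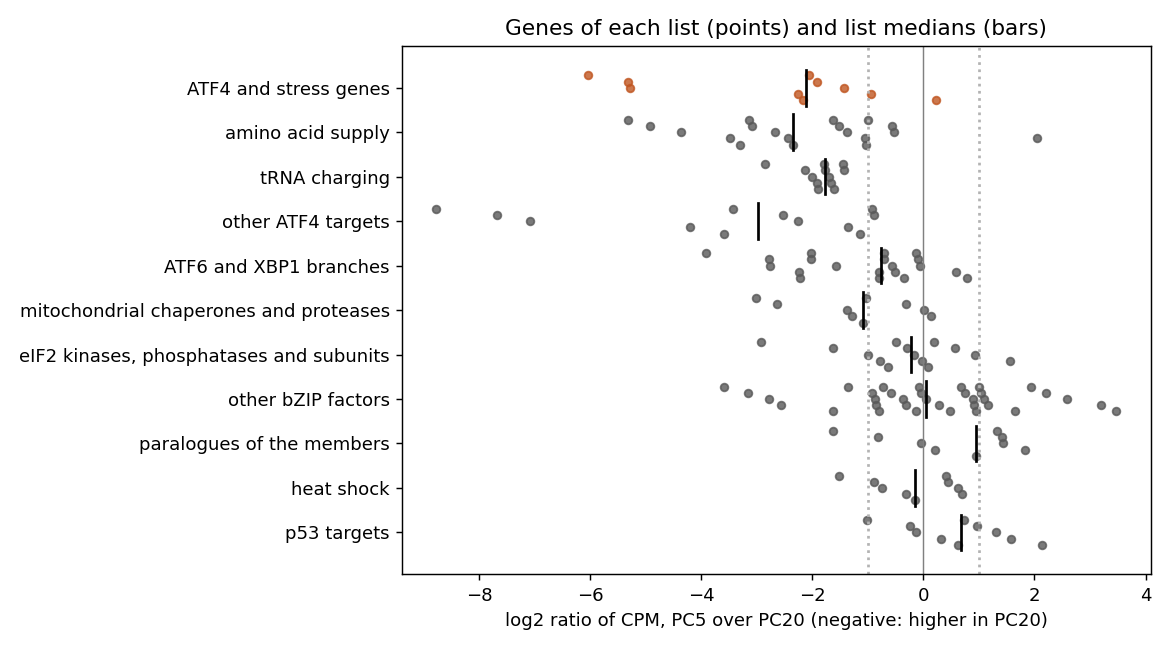
Log2 ratio of CPM, PC5 over PC20, of each gene (points) by list, with list medians as black bars and dotted lines at 2-fold; *Fgf21*, at 0 UMIs in PC5, is drawn at its bound of -8.77 against 3 UMIs. The 10 genes (orange), amino acid supply, tRNA charging and other ATF4 targets lie mostly left of -1, and paralogues and p53 targets mostly right of 0.

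The libraries differed in more than the stress genes. The summed level of 8 pericyte markers was 65.2 CPM in PC5 and 10.1 in PC20, most of it *Pdgfrb* (44.6 and 5.43 CPM). *Cspg4* had 1237 and 19 UMIs and *Notch3* 2484 and 306. *Rgs5* had 405 and 0 UMIs, *Kcnj8* 13 and 0, *Vtn* 20 and 0 and *Abcc9* 1 in each, while *Anpep* had 1.93 and 3.00 CPM. The sum of 4 fibroblast markers was 1302 CPM in PC5 and 101 in PC20, in PC20 nearly all *Col3a1*, while *Pdgfra* had 88.6 and 0.131 CPM. For 3 smooth muscle markers the sum was 283 and 49.5 CPM, with *Tagln* at 219 and 0.230 and *Acta2* at 62.8 and 49.2. For 3 endothelial markers it was 18.2 and 74.0 CPM, nearly all *Flt1*. *Pecam1* (0.542 and 0.110 CPM) and *Cldn5* (14 and 8 UMIs) went the other way. For 2 astrocyte markers the sum was 151 and 229 CPM, nearly all *Slc4a4*, while *Aldh1l1* went the other way (7.35 and 0.0262 CPM). Microglia and oligodendrocyte markers summed to under 1 CPM in both. As given above, *Krt18* was seen in 0.147% of PC5 and 99.1% of PC20 cells, and *Col1a2* in 99.6% and 0.0671%. By these 2 genes, which are in none of the lists, the libraries were nearly separate. A pair that differs this much does not measure how far the libraries differ in other genes. Whether the cells of both libraries are of 1 type, and its part in the differences above, was not tested.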

How the data were processed

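UMI counts of single cultured PCs from mouse brain, 1 library at passage 5 and 1 at passage 20, were analysed. The authors counted UMIs per gene and barcode with CellRanger version 5.0.1 on mm10, and the deposited counts are not normalized. The study's cell filter (over 1000 genes detected, less than 20% of UMIs mitochondrial) was applied. Doublets were not called.

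CPM, log2 ratios without pseudocount, and exact 95% Poisson, conditional binomial and Clopper-Pearson intervals were computed in Python 3.11.15 with scipy 1.17.1. Intervals cover counting error only. Cells were thinned to 10500 UMIs (near the 10th percentile of all kept cells), leaving out 1103 PC5 and 275 PC20 cells. Genes named beside the 10 are, per list, up to 3 in each direction with the largest ratio past 2-fold, and the 10 most like the summed genes in each library. *Slc7a3* and *Fgf21*, and genes named for a role, an overlap, another lineage, a motif or a paralogue's direction, were named after their values were seen. The 10 genes and all lists were chosen with earlier results of these data known. *Krt18* and *Col1a2* are in none of the lists and were named outside these rules. Identifiers were matched to GENCODE M21 (31011 of 31053). The computation was tested on simulated data. As alternatives, the cell filter was loosened or tightened, dividing cells (a *Mki67* or *Top2a* UMI) or the cells with the most UMIs were left out, and thinned UMIs, other library sizes, centring, means over cells and other correlation measures were used.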

Additional observations from a re-analysis of the deposited data

Results flagged for a closer look

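The barcodes left out by the filter, 679 in PC5 with 924207 UMIs and 135 in PC20 with 184103 UMIs, held UMIs of all 10 genes above the limit that a count of 0 allows (3 UMIs, 3.25 CPM in PC5 and 16.3 in PC20). In PC5 and PC20 they had 99.5 and 304 CPM of *Atf4*, 82.2 and 92.3 of *Atf5*, and 32.5 and 619 of *Ddit3*. *Cebpb* had 169 and 228 CPM, *Cebpg* 15.1 and 92.3, and *Nupr1* 121 and 196. *Trib3* had 4.33 and 86.9 CPM and *Chac1* 4.33 and 54.3, from 4 UMIs each in PC5. *Eif4ebp1* had 196 and 429 CPM. *Sesn2*, with 15.1 and 54.3 CPM from 14 and 10 UMIs, was higher in the left-out barcodes of PC20 than of PC5, unlike in the kept cells.

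*Sesn2* differed in opposite directions between cells with and without a *Mki67* or *Top2a* UMI, with a log2 ratio of with over without of -0.21 (-0.27 to -0.15) in PC5 and 0.25 (0.15 to 0.34) in PC20. The difference between the libraries was not tested, since each is 1 sample.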

How the results depend on the processing

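The count of genes at least 2-fold higher in PC20 was 8 under 7 of the 8 alternatives and 9 without cells that had a *Mki67* or *Top2a* UMI, and the count higher in PC5 was 0 under all 8. The sign of each of the 10 log2 ratios was the same under all 8. The median log2 ratio of -2.11 moved to -2.05 without cells with a *Mki67* or *Top2a* UMI, -2.08 with thinned cells, -2.08 when mitochondrial and ribosomal protein genes were left out of the library size, -2.07 when centred on the median gene and -2.03 as a mean over cells. The median *r* of the gene pairs in PC20 was 0.127 without thinning and between 0.0369 and 0.0585 under the other alternatives, and in PC5 between 0.0337 and 0.0574. No paired analysis was possible because each passage has 1 library. For the same reason no replicate could be left out. In PC5 the folds of *Trib3* and *Chac1* rest on 483 and 319 UMIs, and a part of these may be background, which was not subtracted.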
